A study of Mus musculus with 10 samples.

Results

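The genes described here are 8 that encode proteins of the granules of eosinophils and basophils, found in RNA-seq counts from sorted mouse brain microglia. They are Prg2, Prg3, Epx, Ear6, Ear1 and Ear2, of the eosinophil granule, and Prss34 and Mcpt8, the basophil proteases, which makes 8 of the 49315 genes counted. They were chosen by their read counts at 9 months, where earlier results of these data showed them far lower in CD11c+ than in CD11c- cells. Their values in that comparison are therefore a description and carry no test. All cells came from the brains of wild-type C57BL/6 mice and were sorted by flow cytometry into fractions with and without CD11c, the product of the integrin gene Itgax. Each fraction gave 2 libraries at 9 months of age and 3 libraries at postnatal day 5 (P5). The labels name the sorted cells as microglia and give no other sort marker. They do not say whether replicates came from separate animals or pools, so p-values measure the spread between these libraries, which may be technical. Only the 9-month libraries are stated to have been amplified with the SMART-Seq v4 kit, so age and library preparation cannot be told apart and values of the ages are set side by side without a test.

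Eosinophils and basophils are rare granulocytes of blood and bone marrow that arise from shared progenitors under the transcription factors GATA1, GATA2 and members of the C/EBP family. Their granules hold cationic toxins, ribonucleases, a peroxidase and serine proteases, and transcription of the granule genes runs mainly while the cells mature in the marrow. The proteins serve in defence against parasites and in allergic inflammation, and microglia, the resident macrophages of the brain, are not known for making them. Sequences are given first, to show how close the Ear genes are to each other and which members hold the letters GATAA upstream.

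RefSeq promoter windows on the GRCm38.p6 build were at hand for 7 of the 8 genes, and the 250 bases before the start of each were compared. The windows of Ear1 (chr14:43819640-43819889, minus strand) and Ear2 (chr14:44102404-44102653, plus strand) are shown. Levels of these closely related ribonuclease genes had the lowest correlation across the 10 libraries of any pair among the 3 Ear genes. Their Pearson r on a log scale was 0.636, close to the 0.671 of Ear2 with Ear6. The 2 windows were identical at 246 of 252 aligned positions (97.6%), and capitals mark the bases that differ from, or are absent in, the other window. Ear6 shared 78.2% of aligned positions with Ear1 and 77.7% with Ear2.
Ear1: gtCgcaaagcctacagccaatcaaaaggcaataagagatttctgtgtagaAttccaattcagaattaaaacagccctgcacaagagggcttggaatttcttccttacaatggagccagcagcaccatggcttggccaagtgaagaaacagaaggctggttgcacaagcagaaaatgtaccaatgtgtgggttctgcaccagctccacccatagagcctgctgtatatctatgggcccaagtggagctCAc
Ear2: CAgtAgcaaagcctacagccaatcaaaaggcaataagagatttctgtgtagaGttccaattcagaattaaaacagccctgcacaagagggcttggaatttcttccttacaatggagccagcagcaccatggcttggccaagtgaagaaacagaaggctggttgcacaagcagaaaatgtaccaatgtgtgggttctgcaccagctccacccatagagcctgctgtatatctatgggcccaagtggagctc

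The letters GATAA, a form of the element that GATA factors recognise, were searched on both strands in the same windows. Other forms of the element were not searched. They occurred in Prg3 (chr2:84987965-84988214, plus strand) with 2 matches and in Prss34 (chr17:25298144-25298393, plus strand) with 1 match. Epx, Ear6, Ear1, Ear2 and Mcpt8 had 0 matches in this window. Of 32851 promoter windows of that length in the RefSeq table, 7418 (22.6%) hold GATAA, so a match is a description and not a site. Capitals mark GATAA, or its reverse complement, in the windows that follow.
Prg3: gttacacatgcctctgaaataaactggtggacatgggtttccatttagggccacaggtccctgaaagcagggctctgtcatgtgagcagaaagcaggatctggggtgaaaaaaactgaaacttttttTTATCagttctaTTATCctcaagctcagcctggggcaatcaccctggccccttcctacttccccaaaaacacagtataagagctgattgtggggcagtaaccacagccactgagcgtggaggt
Prss34: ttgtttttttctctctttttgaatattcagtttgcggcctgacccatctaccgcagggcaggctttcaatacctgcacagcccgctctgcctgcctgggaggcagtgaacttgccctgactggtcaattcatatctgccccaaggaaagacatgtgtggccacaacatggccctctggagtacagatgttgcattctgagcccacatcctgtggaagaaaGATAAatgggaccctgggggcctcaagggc

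Total counts ran from 11892082 to 25483573 per library, except for P5 CD11c+ replicate 2 with 2619610. That library also stood apart across genes, with correlations of 0.627 to 0.697 with the other P5 libraries, which correlated with each other at 0.947 to 0.993, and it listed 23033 genes at 1 CPM or more, CPM being counts scaled to a common library total. Each P5 result is therefore also given without it. The sorted gene Itgax had 27.98 and 20.7 CPM in 9-month CD11c+ libraries and 5.80 and 3.21 CPM in 9-month CD11c- libraries. At P5 it had 250.2, 49.2 and 144.8 CPM in CD11c+ libraries and 33.1, 61.9 and 29.3 CPM in CD11c- libraries, so that replicate 2 of the CD11c+ group lay inside the CD11c- range. The 35 genes of a list for homeostatic microglia (P2ry12, Tmem119, Cx3cr1 and others) were detected in every group, and their summed level is given further on beside the other cell types.

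**Figure D1:**
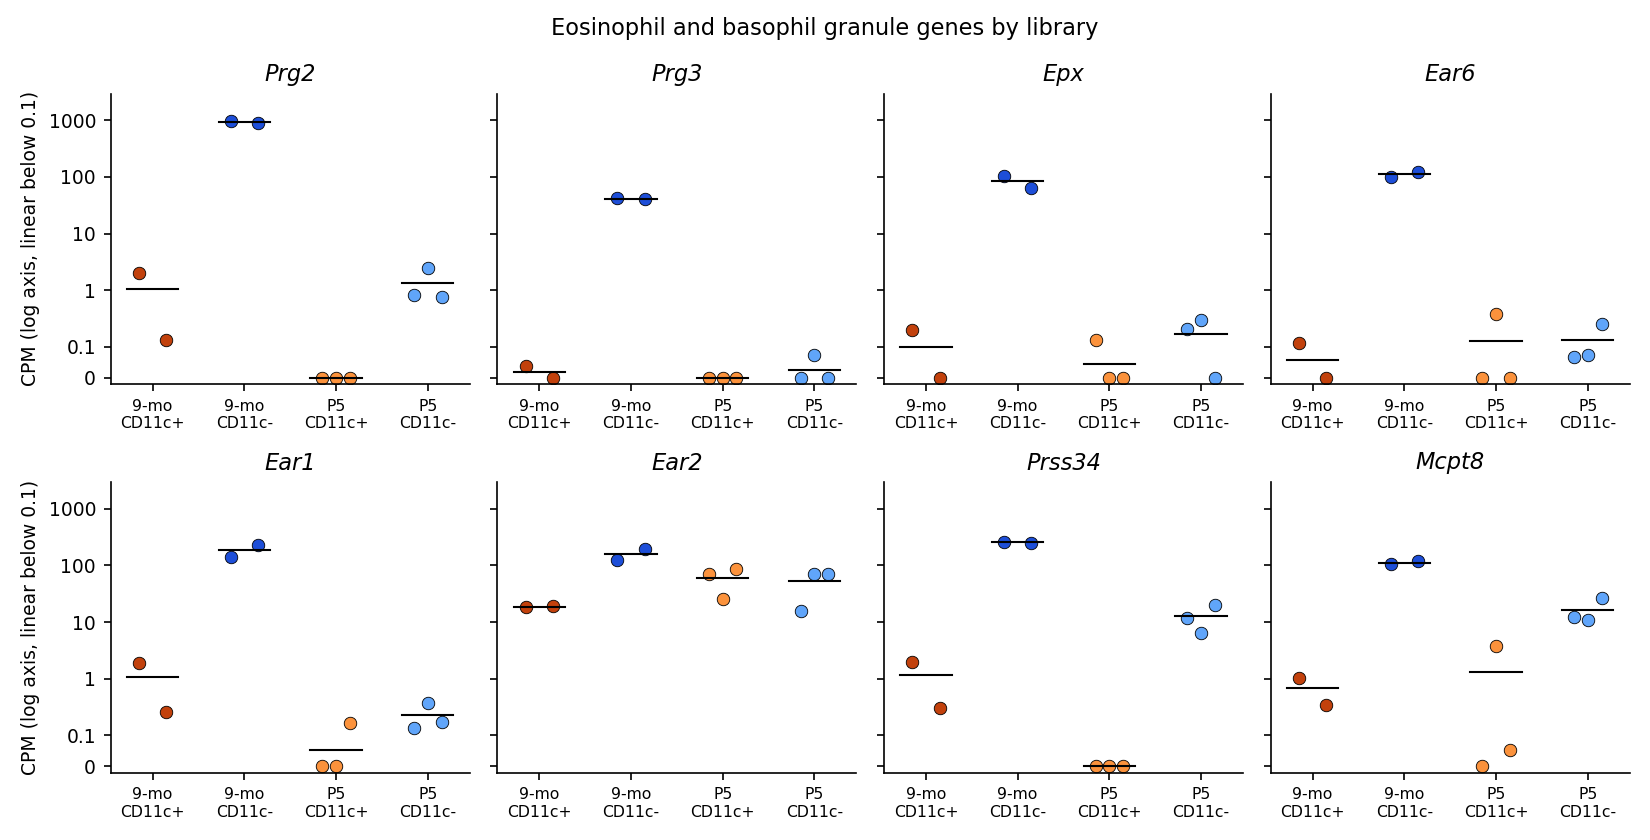
Level of each of the 8 genes in CPM (y axis, logarithmic above 0.1 and linear below) in every library of the 4 groups (x axis). Points are libraries and bars are group means; the 9-month CD11c- libraries are the highest for all 8 genes, and Ear2 alone is above 10 CPM in every library.

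At 9 months all 8 genes were lower in both CD11c+ libraries than in either CD11c- library. The same separation held for 23.7% of the 15740 genes tested at that age, and nothing is read from the count of 8, since this contrast chose the genes. Together the 8 genes had 25.6 and 20.2 CPM in CD11c+ libraries, against 1844 and 1923 CPM in CD11c- libraries, where they took 0.184% and 0.192% of all counts. In bulk libraries such as these, fewer cells of a type and less RNA per cell cannot be told apart.

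Prg2 encodes eosinophil major basic protein, the crystalline core of the granule (ENSMUSG00000027073, chr2:84980461-84983632, plus strand). It had 51 and 3 reads in 9-month CD11c+ libraries (2.0 and 0.128 CPM), against 23168 and 20029 reads in 9-month CD11c- libraries (959.7 and 905.4 CPM). The pooled level was 845-fold lower in CD11c+ (95% exact interval 648 to 1125, counting error only, as for all intervals here). Its neighbour and paralog Prg3, major basic protein 2 (ENSMUSG00000027072, chr2:84988215-84993886, plus strand), had 1 and 0 reads in CD11c+ libraries and 1042 and 885 reads in CD11c- libraries. With a single read on the low side, the ratio of 2036-fold had an interval of 365 to 80467. The pair had the same direction, and their intervals overlapped.

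Epx encodes eosinophil peroxidase, which makes hypohalous acids from bromide and other halides (ENSMUSG00000052234, chr11:87864000-87875536, minus strand). It had 5 and 0 reads in 9-month CD11c+ libraries, against 2529 and 1407 reads in 9-month CD11c- libraries (104.8 and 63.6 CPM), a pooled difference of 832-fold (356 to 2563). Its CD11c- libraries were less alike than those of Prg2, with replicate 1 at 1.65 times replicate 2.

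The Ear genes encode eosinophil-associated ribonucleases, a rodent family of secreted ribonucleases related to the human eosinophil cationic protein. Ear6 (ENSMUSG00000062148, chr14:51853699-51854643, plus strand) had 3 and 0 reads in 9-month CD11c+ libraries, against 2415 and 2692 reads in CD11c- libraries (100.04 and 122 CPM), a ratio of 1799-fold with an interval of 615 to 8726. Ear1 (ENSMUSG00000072601, chr14:43818765-43875517, minus strand) had 48 and 6 reads in CD11c+ libraries and 3386 and 5114 reads in CD11c- libraries (140.3 and 231 CPM), a 166-fold difference (127 to 222). Ear2 (ENSMUSG00000072596, chr14:44102654-44103534, plus strand) had 467 and 449 reads in CD11c+ libraries (18.3 and 19.2 CPM), against 3045 and 4255 reads in CD11c- libraries (126 and 192 CPM). Its 8.42-fold difference (7.86 to 9.03) was the smallest of the 8. Ear1 and Ear2 both were higher in CD11c- replicate 2, with replicate 1 at 0.607 and 0.656 times its level.

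Because the family is so alike, some reads of Ear1 and Ear2 may belong to relatives. Of all 50-base stretches of the annotated Ear1 transcripts, 57.4% also occur in another gene, most often the pseudogene Ear-ps9, and for Ear2 the share is 41.5%, most often Ear10. At 100 bases the shares fall to 23.9% and 13.9%, and none is common to Ear1 and Ear2. Of Ear6 transcripts 0.954% of 50-base stretches are shared, and of the other 5 members none. The sources used here do not give the read length or the handling of reads with several matches, so the split of counts within Ear1, Ear2 and their relatives is uncertain.

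Prss34 and Mcpt8 encode serine proteases, mMCP-11 and mMCP-8, which in mouse are made by basophils. Prss34 (ENSMUSG00000056399, chr17:25298394-25300161, plus strand) had 51 and 7 reads in 9-month CD11c+ libraries (2.0 and 0.299 CPM), against 6392 and 5546 reads in CD11c- libraries (264.8 and 250.7 CPM), a 217-fold difference (168 to 287). Mcpt8 (ENSMUSG00000022157, chr14:56082166-56085216, minus strand) had 26 and 8 reads in CD11c+ libraries (1.02 and 0.342 CPM), against 2536 and 2621 reads in CD11c- libraries (105 and 118 CPM), a 160-fold difference (115 to 232). Summed, the pair stood at 370 and 369 CPM in the CD11c- libraries, so that the replicates of that group were nearly equal for basophil proteases.

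The 9-month CD11c+ libraries themselves were unlike each other for most members. Replicate 1 had 15.6 times the Prg2 level of replicate 2, 7.35 times the Ear1 level, 6.69 times the Prss34 level and 2.98 times the Mcpt8 level, and it held the only reads of Prg3, Epx and Ear6. Ear2 differed from this, at 0.955 of the replicate 2 level. The neutrophil precursor genes Ctsg, Mpo and Elane, for cathepsin G, myeloperoxidase and neutrophil elastase, were also higher in replicate 1, by 15.6, 4.94 and 3.87 times. The Ctsg ratio rests on 17 and 1 reads. Prtn3, another precursor gene, was higher by 1.67 times (49 and 27 reads), and the abundant neutrophil genes Camp and S100a8 by 2.07 and 1.39 times. The part of these neutrophil genes in the difference between these replicates was not tested. As a share of the CD11c- mean, replicate 1 held between 0.0944% for Prg3 and 1.01% for Ear1 outside Ear2, and replicate 2 held at most 0.306%, for Mcpt8. For Ear2 the shares were 11.5% and 12.05%.

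**Figure D2:**
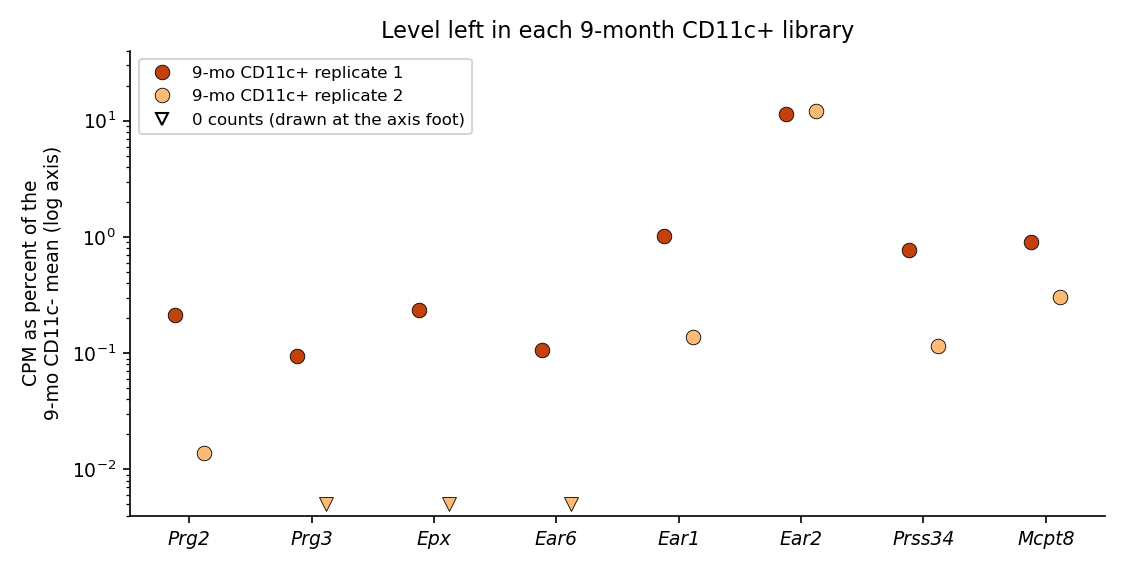
Level of each gene in the 9-month CD11c+ libraries as a percent of the 9-month CD11c- mean (y axis, logarithmic); triangles are genes with 0 reads in replicate 2. Replicate 1 lies above replicate 2 for every gene except Ear2, whose libraries both sit near 12%.

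Levels of different genes were compared per kilobase of the gene length in the count tables, as reads per kilobase of length on the CPM scale (RPKM). In 9-month CD11c- cells Prg2 led with 1113 ± 45.9 RPKM (SD, n = 2). Ear1 with 254 ± 88.1, Ear2 with 221 ± 65.1 and Prss34 with 212 ± 8.19 RPKM followed, and these 3 were not separated beyond their spread. Mcpt8 with 131 ± 11.1 and Ear6 with 117 ± 16.2 RPKM also overlapped, whereas Prg3 with 43.8 ± 2.35 RPKM lay just above Epx with 30.8 ± 10.6 RPKM. In 9-month CD11c+ cells the order differed, with Ear2 first at 26.1 ± 0.847 RPKM, and Ear1, Prg2, Prss34 and Mcpt8 between 0.797 and 1.47 RPKM with SDs of 0.561 to 1.58 RPKM. The last 3 there, Ear6, Epx and Prg3, had 3, 5 and 1 reads in all.

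In P5 CD11c- cells the order was different again, with Ear2 at 73.2 ± 44.2 RPKM (SD, n = 3), Mcpt8 at 19.4 ± 10.5, Prss34 at 10.3 ± 5.55 and Prg2 at 1.59 ± 1.14 RPKM. Prss34 and Prg2 were the only neighbours in that order separated by more than their SDs. The means of Mcpt8 and Prss34 thus stood above every eosinophil gene but Ear2, whereas in 9-month CD11c- cells Prg2 stood above both. In P5 CD11c+ cells Ear2 had 85.2 ± 44.1 RPKM and the next, Mcpt8, 1.51 ± 2.56 RPKM, while Prg2, Prg3 and Prss34 had 0 reads.

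**Figure D3:**
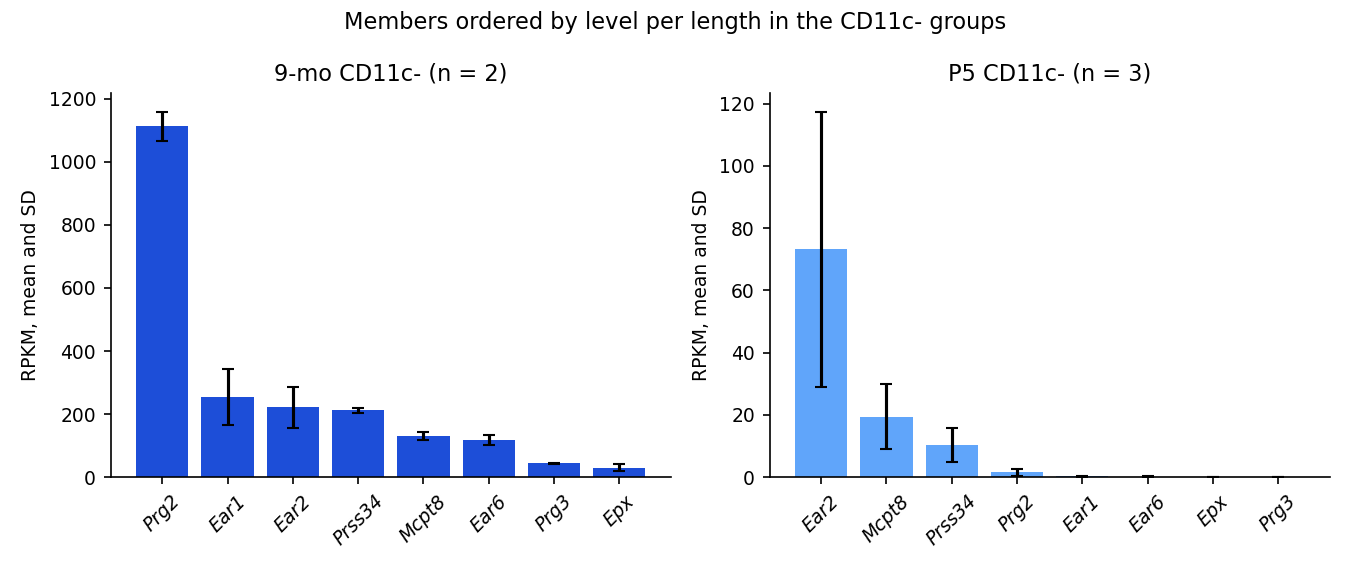
Mean RPKM of the 8 genes in the 9-month CD11c- libraries (n = 2) and the P5 CD11c- libraries (n = 3), with bars for the SD, sorted by level; the y axes differ. Prg2 is the highest gene at 9 months (1113 RPKM), and Ear2, Mcpt8 and Prss34 are the highest at P5 (73.2, 19.4 and 10.3 RPKM).

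The P5 comparison did not enter the choice of genes and was tested. Of the 8 genes 4 (Prg2, Ear2, Prss34 and Mcpt8) passed the filter on low counts, and 0 passed the test (edgeR quasi-likelihood, adjusted p under 0.05) in the 6 libraries, where 0 of all 15410 genes tested (0%) fell and 46 (0.299%) rose in CD11c+. At an unadjusted p under 0.05, 409 genes were lower and 668 higher. DESeq2 called 2 of the 8 lower, Prg2 and Prss34, where it called 162 of 15137 genes (1.07%) lower. In 3 of the 8, Prg2, Prss34 and Mcpt8, every CD11c+ library lay below every CD11c- library, as 3.64% of all genes did. Prg2 and Prss34 passed the filter through their CD11c- reads alone, so neither count is support for a difference.

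Prss34 showed the widest gap at P5, with 0, 0 and 0 reads in CD11c+ libraries, against 173, 85 and 234 reads in CD11c- libraries (11.7, 6.27 and 19.7 CPM). Against a floor of 3 reads over the CD11c+ group it was at least 149-fold lower in CD11c+, where the exact interval has its limit at 120-fold, and the edgeR adjusted p was 0.0828. Mcpt8 had 0, 10 and 1 reads in CD11c+ libraries and 181, 146 and 320 reads in CD11c- libraries (12.2, 10.8 and 26.9 CPM). Its pooled ratio of CD11c+ over CD11c- was 0.0188 (0.00932 to 0.0338), with an edgeR adjusted p of 0.675, and 10 of its 11 CD11c+ reads lay in the library that stands apart. Prg2 had 0, 0 and 0 reads in CD11c+ libraries and 12, 33 and 9 reads in CD11c- libraries, which is at least 16.3-fold lower in CD11c+ against the same floor, with an exact limit of 12.8-fold (edgeR adjusted p = 0.221).

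Without P5 CD11c+ replicate 2, these 3 genes were called lower, where 4.42% of 15841 genes were and 15.9% had both CD11c+ libraries below every CD11c- library. With 0, 0 and 1 reads of Prg2, Prss34 and Mcpt8 left in CD11c+, all 3 passed the filter through their CD11c- reads alone, so these calls are given as a description and are no support for a difference. Prss34 had an edgeR adjusted p of 0.00764, with at least a 138-fold lower level against the floor and an exact limit of 112-fold. Mcpt8 had an edgeR adjusted p of 0.00378. Prg2 had an edgeR adjusted p of 0.0344 and was at least 15.1-fold lower, with an exact limit of 11.9-fold. Leaving out another P5 library instead gave no call among the 8. The share of mitochondrial counts moved with the groups at P5, at 2.39%, 0.791% and 2.80% in CD11c+ libraries, against 7.19%, 20.8% and 28.1% in CD11c- libraries, and its part in these results was not tested.

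The other eosinophil genes had few reads at P5. Prg3 had 0 reads in CD11c+ libraries and 1 read in CD11c- libraries, Epx 2 and 7, Ear6 1 and 5, and Ear1 3 and 9, each summed over 3 libraries. For Epx, Ear6 and Ear1 the exact intervals of the ratio of CD11c+ over CD11c- included equality, up to 1.66, 1.97 and 1.47, so no difference was detectable at this depth. Without CD11c+ replicate 2 they reached 1.78, 1.30 and 1.59. The CD11c+ libraries left had 0 reads of Ear6 and lay below every CD11c- library for it. A floor of 3 reads corresponds to 0.0822 CPM over the P5 CD11c+ group and 0.0744 CPM over the P5 CD11c- group.

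Ear2, a gene also known from mouse monocytes, had reads in every library. It had 1095, 67 and 1610 reads in P5 CD11c+ libraries (72.1, 25.6 and 86.1 CPM), against 237, 960 and 846 reads in P5 CD11c- libraries (16.0, 70.8 and 71.1 CPM). With all 6 libraries the groups overlapped, and the fitted log2 fold change was -0.05 ± 0.70 (SE; edgeR adjusted p = 0.993). Without CD11c+ replicate 2 it was 0.34 ± 0.61 (SE; edgeR adjusted p = 0.765). On library totals the CD11c+ libraries left then both lay above every CD11c- library, by little for CD11c+ replicate 1. On TMM-scaled library sizes the groups overlapped. These CD11c+ libraries had 66.9 and 82.0 CPM there, against 14.8, 79.4 and 86.7 CPM in CD11c- libraries. Ear2 made up 92.9% to 99.8% of the reads of the 6 eosinophil genes in the P5 libraries and 81.2% and 98.0% in the 9-month CD11c+ libraries, against 8.56% and 12.4% in the 9-month CD11c- libraries. Ear1, with an upstream window 97.6% identical to that of Ear2 as printed above, had 0 to 6 reads in 7 of the 8 libraries in which Ear2 had 67 to 1610. Reads of Ear10, the gene sharing most 50-base stretches with Ear2, numbered 0 in 9-month CD11c+ and 36 in 9-month CD11c- libraries, and 4 in P5 CD11c+ and 5 in P5 CD11c- libraries.

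Across the 10 libraries, the log2(CPM + 1) values of Prg2, Prg3, Epx, Ear6 and Ear1 correlated pairwise at Pearson r of 0.984 to 0.998. Prss34 and Mcpt8 correlated at 0.955, and Ear2 with the other 7 genes at 0.530 to 0.675. These are descriptions over 10 libraries that share 4 groups. The 2 libraries of the 9-month CD11c- group were the highest for all 8 genes, and values without them were not computed. With the mean profile of the 6 eosinophil genes, the 8 most similar of 13928 genes with at least 10 CPM in 1 library were the acyltransferase gene Mogat2, the immunoglobulin light chain segment Igkv1-117, the receptor gene Mrgpra2a, the uridine phosphorylase gene Upp1, the lactate dehydrogenase gene Ldhc, Tbc1d10c, the sulfotransferase gene Chst13 and the chitinase-like gene Chil5, at r of 0.992 to 0.995. Mrgpra2a, for example, averaged 0.271 CPM in 9-month CD11c+ libraries and 37.5 CPM in 9-month CD11c- libraries, and at most 0.737 CPM in any P5 library.

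The profile of Prss34 and Mcpt8 was matched most closely by Cebpe at r = 0.954, then by I830127L07Rik, Gadd45a, Ifnlr1, Arg2, Cpa3, Hdc and, at 0.935, Ctsg. All 8 averaged less in P5 CD11c+ than in P5 CD11c- libraries. They were chosen for likeness to this profile over the same libraries, so their direction is a description and no support for a difference. Cebpe averaged 1.06 CPM in P5 CD11c+ and 5.39 CPM in P5 CD11c- libraries, Arg2 0.773 and 5.40 CPM, and Ctsg 0.0178 and 2.26 CPM. Without P5 CD11c+ replicate 2 only 2 of the 8 were still among the nearest 8.

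Other genes of the same cells, from lists made with earlier results known, were counted next, and at 9 months 18.2% of all genes fell and 14.8% rose in CD11c+. Of 26 basophil and mast cell genes 17 could be tested, and 14 fell and 0 rose, with a median log2 fold change of -3.61 against 0.02 over all genes tested. Hdc, histidine decarboxylase, which makes histamine, had 16.8 and 9.06 CPM in CD11c+ libraries, against 809 and 573 CPM in CD11c- libraries, and fell by 6.10 ± 0.35 on the log2 scale (SE; edgeR adjusted p = 5.88e-05). Fcer1a, the alpha chain of the high-affinity IgE receptor, had 0.157 and 0.385 CPM in CD11c+ libraries and 18.2 and 20.5 CPM in CD11c- libraries (edgeR adjusted p = 0.000113). The granule proteoglycan gene Srgn, which many blood cells express, had 205 and 249 CPM in CD11c+ libraries and 752 and 1039.6 CPM in CD11c- libraries. The carboxypeptidase gene Cpa3 fell by 7.21 on the log2 scale, Ms4a2, the beta chain of the IgE receptor, by 5.77, and Cd200r3, a basophil surface receptor, fell by 5.50. Fcer1a, Cpa3, Ms4a2 and Cd200r3 had 13, 6, 5 and 7 reads over the 9-month CD11c+ group. They passed the filter through their CD11c- reads alone, so their calls are no support for a difference, and the count of 14 includes such calls. In a fit of all 10 libraries 3 of the 17 fell.

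At P5 without CD11c+ replicate 2, 7 of 18 tested genes of that list fell and 1 rose, where 4.42% and 5.06% of all genes did. Ms4a2 had 0.0659, 0 and 0 CPM in all 3 CD11c+ libraries and 3.44, 1.62 and 2.94 CPM in CD11c- libraries (edgeR adjusted p = 0.00880 without replicate 2 and 0.101 with it). Hdc had 2.11, 10.7 and 2.62 CPM in CD11c+ libraries and 13.3, 31.3 and 25.5 CPM in CD11c- libraries (edgeR adjusted p = 0.00974 without replicate 2 and 0.398 with it). Gata2, Cyp11a1, Cpa3, Cd200r3 and Itga2b were the other 5 that fell, Il3ra, an interleukin 3 receptor chain, was the gene that rose, and with all 6 libraries 0 of 17 fell. The library left out held Cyp11a1 at 7.63 CPM, inside the CD11c- range of 5.09 to 8.07 CPM, and Cd200r3 at 6.11 CPM, above the CD11c- range of 2.51 to 5.97 CPM. It held Cpa3 at 1.91 CPM, inside the CD11c- range of 1.77 to 5.53 CPM. In the CD11c+ libraries kept, Gata2 had 0 and 5 reads, Cyp11a1 2 and 0, Cpa3 6 and 3, and Cd200r3 3 and 4. Ms4a2 had 1 read over the CD11c+ group. These genes passed the filter through their CD11c- reads alone, so their calls, which the 7 include, are no support for a difference.

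Proteases of connective-tissue mast cells, named here after their values were seen, had a different pattern. Cma1, the chymase mMCP-5, had 9 and 0 reads in 9-month CD11c+ libraries and 0 and 2 reads in 9-month CD11c- libraries, where Mcpt8 had 2536 and 2621. Mcpt4, the chymase mMCP-4, had 0 reads in 9-month CD11c+ and 4 in 9-month CD11c- libraries, and the tryptase gene Tpsb2 had 1 and 4. At P5, Cma1 had 11, 9 and 3 reads in CD11c+ libraries, against 216, 25 and 11 in CD11c- libraries, Mcpt4 6, 0 and 1 against 145, 16 and 8, and Tpsb2 14, 0 and 0 against 165, 23 and 0. Replicate 1 of the P5 CD11c- group held most of these reads, whereas Prss34 and Mcpt8 were highest in replicate 3. Without CD11c+ replicate 2 none of these 3 passed at P5 (edgeR adjusted p of 0.0936 to 0.266), and neither of the 2 that could be tested passed with it.

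Among 14 eosinophil lipid mediator and effector genes, 13 were tested at 9 months, and 10 fell and 2 rose. Alox15, a lipoxygenase of mouse macrophages and eosinophils, had 1.92 and 1.24 CPM in CD11c+ libraries, against 141 and 98.6 CPM in CD11c- libraries, and fell by 6.59 ± 0.30 on the log2 scale (SE; edgeR adjusted p = 3.35e-05). Chil3, a chitinase-like secreted lectin of neutrophils and activated macrophages as well, had 176 and 122 CPM in CD11c+ libraries and 8524 and 10566 CPM in CD11c- libraries. Retnlg, a resistin-like gene typical of mature neutrophils, fell by 7.94 on the log2 scale, and the calcium-binding protein gene S100a6 fell by 5.58. The leukotriene synthase gene Ltc4s and the transglutaminase gene Tgm2 rose. Under scaling to homeostatic microglia genes, which moved the median log2 fold change of all genes to -1.24, against 0.02 without it, 0 of the list rose. At P5 without CD11c+ replicate 2, Alox15 and Retnlg fell and the other 10 tested did not pass. Alox15, with 5 and 6 reads in those CD11c+ libraries, passed the filter through its CD11c- reads alone, so its P5 call is no support for a difference.

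Of 17 eosinophil receptor and surface genes, 16 were tested at 9 months, and 8 fell and 4 rose. Il5ra, the receptor chain for the eosinophil growth factor interleukin 5, had 0.0392 and 0 CPM in CD11c+ libraries and 2.82 and 5.02 CPM in CD11c- libraries (edgeR adjusted p = 0.00168). With 1 read over the CD11c+ group, Il5ra passed the filter through its CD11c- reads alone, so its call is no support for a difference. Ccr3, the eotaxin receptor, had 1.57 and 1.37 CPM in CD11c+ libraries, against 10.4 and 11.9 CPM in CD11c- libraries, and fell by 3.31 ± 0.35 (edgeR adjusted p = 0.000733). The more widely expressed Cd24a, Ffar2 and Pirb fell by 5.44, 5.71 and 2.40 on the log2 scale. Ffar2, with 19 and 5 reads in CD11c+ libraries, also passed the filter through its CD11c- reads alone. Its call is likewise no support for a difference. Siglecf, a lectin used to gate eosinophils, and Adgre1, the F4/80 antigen shared with macrophages, rose by 1.03 and 1.86. Under the homeostatic scaling Siglecf had -0.23, above the median of -1.24 that all genes had with it. At P5 0 of 15 passed, with or without CD11c+ replicate 2. In a fit of all 10 libraries 4 fell and 1 rose at 9 months.

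Of 18 transcription factor genes of these lineages, 7 fell and 1 rose at 9 months. Cebpe, which is needed for terminal granulocyte differentiation, had 0.903 and 0.598 CPM in CD11c+ libraries, against 73.2 and 43.7 CPM in CD11c- libraries, and fell by 6.62 ± 0.35 on the log2 scale (SE; edgeR adjusted p = 4.96e-05). Gata1 had 0 and 0.0855 CPM in CD11c+ libraries and 1.41 and 2.80 CPM in CD11c- libraries (edgeR adjusted p = 0.0104), and Gata2 0.118 and 0.855 against 3.36 and 4.20 CPM (edgeR adjusted p = 0.0230). Gata1 had 2 reads over the CD11c+ group, and Gata2 had 3 and 20 reads in the CD11c+ libraries. Both passed the filter through their CD11c- reads alone, so these calls are no support for a difference. The factor gene Nfil3 fell by 3.37, and Irf8, which microglia also express, rose by 1.12, with -0.14 under the homeostatic scaling, also above that median. In a fit of all 10 libraries 1 fell and 0 rose. At P5 without CD11c+ replicate 2, Gata2 and Cebpe fell. Gata2 then had 0 and 0.267 CPM in CD11c+ libraries and 9.23, 7.30 and 10.3 CPM in CD11c- libraries, but 13.7 CPM in the library left out. It passed the filter there through its CD11c- reads alone, so that call is no support for a difference.

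Of 5 further ribonuclease genes of the family, 3 could be tested at 9 months, and Rnase12, Ear10 and Rnase2a were called lower. Rnase12 had 0.746 and 0.983 CPM in CD11c+ libraries and 3.15 and 2.98 CPM in CD11c- libraries. Ear10 and Rnase2a had 0 reads in CD11c+ libraries and 36 and 24 reads in CD11c- libraries. These 2 passed the filter through their CD11c- reads alone, so their calls are no support for a difference. None of the 3 passed when either CD11c+ library was left out, or in a fit of all 10 libraries.

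**Figure D4:**
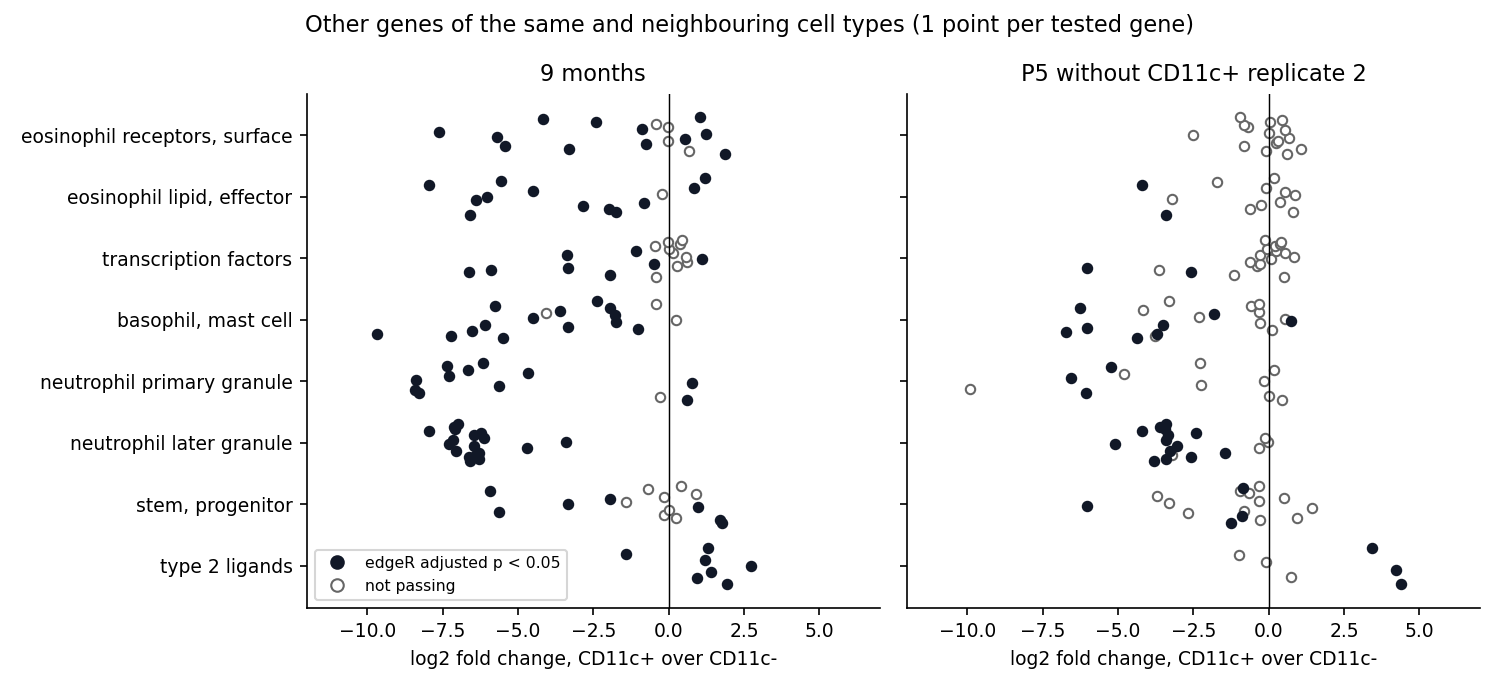
Log2 fold change of CD11c+ over CD11c- (x axis) for each tested gene of 8 lists (y axis), at 9 months (left) and at P5 without CD11c+ replicate 2 (right); filled points have an edgeR adjusted p under 0.05. At 9 months the basophil and mast cell list has 14 filled points left of 0 and none right of it, and at P5 it has 7 left and 1 right.

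Genes of other blood cells moved with the members. All 18 genes of neutrophil secondary and tertiary granules fell at 9 months, and their summed level was 6277 to 7137 CPM in CD11c+ libraries against 180496 to 243654 CPM in CD11c- libraries, with no gene at 0 in either group. Of 12 neutrophil primary granule genes 9 fell and 2 rose, and Elane had 3.81 and 0.983 CPM in CD11c+ libraries against 689 and 589 CPM in CD11c- libraries. At P5 the secondary and tertiary list summed to 939 to 2224 CPM in CD11c+ libraries and 1554 to 5573 CPM in CD11c- libraries, and 14 of 18 fell without CD11c+ replicate 2. Monocyte genes summed to 1046 to 1169 CPM in 9-month CD11c+ libraries and 16943 to 19603 CPM in 9-month CD11c- libraries, and 14 of 17 fell. That list shares Chil3 and Cd177 with the secondary and tertiary granule list, so these sums are not separate. Chil3 alone had 8524 and 10566 CPM in 9-month CD11c- libraries. Of 20 cell cycle genes 18 fell at 9 months and 0 at P5. The homeostatic microglia list ran the other way at 9 months, with 114364 to 119177 CPM in CD11c+ libraries and 39295 to 39689 CPM in CD11c- libraries. At P5 it did not, with 22875 to 36847 CPM in CD11c+ libraries and 29707 to 50831 CPM in CD11c- libraries. Without P5 CD11c+ replicate 2, 5 of its 35 genes fell and 0 rose, where 4.42% and 5.06% of all genes did. The part of these cells in the members' differences was not tested.

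The stem and progenitor, erythroid, megakaryocyte, B-lineage, and T and NK cell lists had calls in both directions at 9 months. Of 15 tested stem and progenitor genes 3 rose and 4 fell. Among them Myb, a factor of dividing progenitors, had 0.589 and 0.385 CPM in CD11c+ libraries and 23.4 and 23.1 CPM in CD11c- libraries, and Cd34 had 387 and 376 CPM against 98.3 and 81.4 CPM. With 24 reads over the CD11c+ group, Myb passed the filter through its CD11c- reads alone, so its call is no support for a difference. Of 10 erythroid genes 2 rose and 4 fell, of 6 megakaryocyte genes 2 rose and 1 fell, of 6 B-lineage genes 2 rose and 3 fell, and of 12 T and NK cell genes 2 rose and 2 fell. In a fit of all 10 libraries at most 1 gene rose and at most 1 fell in each of these 5 lists. Border-associated macrophage genes, of the meninges and vessels, went against the members, with 18 of 20 higher and 1 lower in CD11c+ at 9 months and 10 of 20 higher at P5. The P5 count was 0 with a replicate block or when any P5 library other than CD11c+ replicate 2 was left out, and 18 without CD11c+ replicate 2 or with DESeq2.

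Of 14 genes for ligands that attract or feed eosinophils and basophils, or for their synthesis, 7 were tested at 9 months, and 6 rose and 1 fell. In a fit of all 10 libraries 2 rose and 0 fell, and 1 rose under the homeostatic scaling, with its lower median of all genes. Ccl24, eotaxin-2, a ligand of CCR3, had 15.2 and 13.1 CPM in 9-month CD11c+ libraries against 3.65 and 2.17 CPM in 9-month CD11c- libraries (log2 fold change 1.92 ± 0.34, SE; edgeR adjusted p = 0.00587). At P5 it had 78.8, 251 and 125 CPM in CD11c+ libraries against 4.38, 5.38 and 3.28 CPM in CD11c- libraries (4.94 ± 0.54; edgeR adjusted p = 0.0302). Ccl7, a monocyte chemoattractant that also binds CCR3, rose by 1.41 ± 0.30 at 9 months (edgeR adjusted p = 0.0121) and by 4.32 ± 0.27 at P5 (edgeR adjusted p = 0.0179). Both P5 calls were lost when any P5 library other than CD11c+ replicate 2 was left out. Ccl8 and the prostaglandin D synthase gene Hpgds rose at 9 months by 2.74 and 1.20, with -0.06 for Hpgds under that scaling, above the median of all genes. Tslp, a cytokine that acts on basophils, had 4.98 and 6.20 CPM in 9-month CD11c+ libraries against 1.99 and 1.49 CPM in 9-month CD11c- libraries (edgeR adjusted p = 0.0488). That call was lost in a fit of all 10 libraries, with a replicate block, DESeq2, DESeq2 size factors or the homeostatic scaling, and without either CD11c+ library or CD11c- replicate 2. Il5 had 0 reads in 9-month CD11c+ and 3 reads in 9-month CD11c- libraries, and 1 read in each P5 group.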

How the data were processed

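The authors deposited raw counts, whole numbers of reads per gene with coordinates and gene length, for 10 libraries. Per the submitters' processing notes, Subread 1.5.2, STAR 2.5.2b and Trimmomatic 0.36 were used. The sources used here do not give the genome build, the strand setting or the treatment of multiply mapped reads, although 91.4% of gene identifiers shared with GENCODE M21 (GRCm38) had the same coordinates. Symbols came from that annotation.

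Members and lists were chosen with earlier results of these data known. Each age was fitted with edgeR 4.0.16 in R 4.3.3 (filterByExpr, TMM, quasi-likelihood F-test), adjusted by Benjamini-Hochberg over all genes tested, with a threshold of 0.05. CPM use the library total and RPKM also the length given in the tables. Ratios pool the reads of a group, with exact 95% conditional intervals and a floor of 3 reads over a group at 0. These cover counting error only. Named genes were all 8 members, up to 4 per list with the smallest p at 9 months, list genes passing at P5, and the 8 nearest in pattern. Lists of other cell types are given by counts and summed levels, with values for a few genes. Ccr3, Siglecf, Il5ra, Ms4a2, Gata2, Cd200r3, Cyp11a1, Cma1, Tpsb2, Mcpt4, Tslp, Elane, Mpo and Ctsg were added after their values were seen. Alternatives used DESeq2 1.42.0, limma 3.58.1, other scalings and filters, all 10 libraries, the replicate number as a block, and each library left out. No pair of libraries of a group agreed within sampling noise (chi-square per degree of freedom of 28.3 or more). The tests were checked on simulated counts, drawn with the same dispersion for all genes. Changes were planted only in genes with higher mean counts than Prg2, Prg3, Epx, Ear6 and Ear1 had at P5. The shares found therefore do not apply to genes with fewer reads or a wider spread. In the main P5 fit the share of planted changes found was 10.4% at 4-fold, 44.8% at 8-fold and 98.5% at 32-fold. Without P5 CD11c+ replicate 2 this share was 100% at each size. For the 9-month fit it was 80.6% at 4-fold and 100% at the larger sizes. The main P5 test thus missed most planted changes of 4-fold and 8-fold, so genes without a call there may still differ. All count columns were used (0 left out).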

Additional observations from a re-analysis of the deposited data

Results flagged for a closer look

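For 3 genes, every CD11c+ library lay on opposite sides of the CD11c- libraries at the 2 ages. The share of all genes that did so was not counted, so nothing is read from this count. Every CD11c+ library lay below every CD11c- library for 23.7% of genes at 9 months and 3.64% at P5. The difference between ages was not tested, since age and library kit cannot be told apart. Ccr3 had a log2 fold change of CD11c+ over CD11c- of -3.31 at 9 months and 1.46 at P5, a difference of -4.77. At P5 it had 3.62, 6.49 and 2.78 CPM in CD11c+ libraries and 1.62, 1.11 and 1.35 CPM in CD11c- libraries (edgeR adjusted p = 0.711).

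Siglecf had 1.03 at 9 months and -1.03 at P5, a difference of 2.06, and -0.23 at 9 months under scaling to homeostatic microglia genes. It had 39.1 and 37.9 CPM in 9-month CD11c+ libraries and 16.6 and 12.7 CPM in 9-month CD11c- libraries, and at P5 17.8, 14.5 and 15.9 CPM in CD11c+ libraries and 44.1, 25.9 and 19.3 CPM in CD11c- libraries. Adgrg1, an adhesion receptor of both microglia and stem cells, had 1.76 at 9 months and -1.62 at P5, a difference of 3.39. Neither Siglecf nor Adgrg1 passed in the main P5 test, where 0 of 15410 genes were called lower in CD11c+.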

How the results depend on the processing

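At 9 months the fitted log2 fold change of Prg2, -10.11, and of Epx, -9.96, had -13.10 and -14.04 without CD11c+ replicate 1, where Epx has 0 reads and its value depends on the prior count. At P5 the members called lower numbered 0 in the main test, 1 in a fit of all 10 libraries, 1 with no filter beyond 1 count and 2 with DESeq2, and 0 to 3 when single libraries were left out. All genes called at P5, 46 higher and 0 lower, became 104 and 34 in the fit of all 10 libraries, 392 and 162 with DESeq2, 79 and 0 under scaling to homeostatic microglia genes, 30 and 2 with no filter, 75 and 0 with limma-voom, and 0 to 801 higher and 0 to 700 lower with single libraries left out. At 9 months 2333 higher and 2869 lower became 280 and 878 in the fit of all 10 libraries and 117 and 9065 under the homeostatic scaling, under which the median log2 fold change over all genes was -1.24 at 9 months and 0.99 at P5. Ear2 at P5, at -0.05, had 0.12 with a replicate block, 0.58 under the homeostatic scaling, below that median, 0.018 with no filter, 0.25 with limma-voom and -0.50 to 0.34 with single libraries left out. At 9 months Hpgds, Irf8 and Siglecf had -0.058, -0.14 and -0.23 under the homeostatic scaling. The summed level of the 8 genes in 9-month CD11c- libraries, 1884 CPM, was 2156 CPM on TMM-scaled library sizes. Of the 8 nearest genes, a pseudocount of 0.1 kept 3 for the eosinophil and 5 for the basophil profile, and leaving out P5 CD11c+ replicate 2 kept 2 for the basophil profile. The cause of these shifts was not tested.

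Same-number libraries had correlations of deviations from the group mean of 0.491, 0.0657 and -0.490 at P5. Libraries of unlike number had -0.554 to 0.536. The P5 CD11c+ mean includes replicate 2, which stands apart, so pairing could be neither shown nor excluded. At 9 months the same-number value was 0.123, where 2 libraries a group force equal and opposite deviations. The replicate block left 0 higher and 0 lower genes at P5, with 2490 higher and 2946 lower at 9 months. With 2 or 3 libraries a group, and 2619610 counts in the shallowest, Prg3, Epx, Ear6 and Ear1, with under 10 reads in each P5 group, cannot be compared between them.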
